A study of Mus musculus with 4 samples.

Results

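G protein-coupled receptors of 9 families were examined in mouse bone-marrow-derived macrophages (BMDM), which are macrophages grown in culture from bone marrow. Members were chosen by gene symbol, each with at least 1 transcript annotated as protein coding. They were numbered Gpr receptors, adhesion receptors (Adgr), P2Y receptors (P2ry), most but not all of them for nucleotides, and hydroxycarboxylic acid receptors (Hcar). Receptors for sphingosine 1-phosphate (S1pr), lysophosphatidic acid (Lpar) and adenosine (Adora) were also included. The rule gave 126 members among 55536 Ensembl genes, and 4 further genes matched the symbols but had no protein-coding transcript. The cells came from the strain C57BL/6J and formed 1 group of 4 replicate libraries. Per the descriptions, all received 100 ng/mL Lipid A (the bacterial lipid sensed by TLR4) for 12 h, a washout of 12 h and a second dose of 100 ng/mL for 60 min. In the source names and characteristics the agent is lipoprotein A and no washout is given, and this conflict could not be settled. All 4 libraries carry the same donor identifier but different biosamples, and the sex and age of the mice were not collected. Cells without the exposures are not analysed here, so no level below is a response to treatment, and p-values measure only the spread between these libraries, which may be technical.

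These receptors cross the membrane repeatedly and pass the binding of a ligand on to G proteins inside the cell, which raise or lower cyclic AMP, release calcium or act on the cytoskeleton. Macrophages use P2Y and adenosine receptors to sense nucleotides and adenosine that leave damaged or stimulated cells, and lysolipid, proton and fatty acid receptors to sense their surroundings. Adhesion receptors carry long extracellular parts that bind other cells or matrix, and orphan receptors in general are those with no accepted ligand. The orphan Gpr class used here is wider. It holds every Gpr member outside the ligand-assigned (lipid, proton or metabolite sensing) and noncanonical lists, so some of its members may have a reported ligand.

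Expected counts on genes came to 23167140 to 41453162 per library, and replicates 1 and 2 were deposited with 6 read files and replicates 3 and 4 with 4. Levels are given in TPM, which is scaled for transcript length and library size, so that levels of different genes can be set side by side. The macrophage label was checked against 8 markers, among them the member Adgre1, and 8 of 8 had at least 1 TPM in each library. Of markers of other cells 2 of 10 for neutrophils, 0 of 5 for eosinophils, 1 of 6 for dendritic cells, 0 of 5 for T cells, 1 of 5 for B cells, 0 of 4 for NK cells, 0 of 5 for mast cells and basophils, 0 of 4 for erythroid cells and 1 of 5 for stroma did. The summed level of the neutrophil list was uneven, at 133, 13.1, 106 and 12.7 TPM in replicates 1 to 4. Most of it came from the alarmins S100a8 and S100a9. Ngp and Ltf of this list were also higher in replicates 1 and 3. Ngp had 7.96, 0.400, 7.34 and 0.560 TPM and Ltf 1.48, 0.0300, 1.67 and 0.0800. Camp, Elane, Mpo and Cxcr2 were at 0 to 1.68 TPM, and Ly6g and Retnlg were at 0 in each library. The eosinophil list summed to 17.9 TPM in replicate 1 and to 0.950 to 2.52 in the others, nearly all from the chemokine receptor Ccr3, with Epx and Il5ra at 0.

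Most of these receptors were below detection, and a small number were abundant. In each library 38 of 126 members (30.2%) had at least 1 TPM, here called detected, against 44.3% of 21901 protein-coding genes. At most 3 counts in each library, the limit that a count of 0 allows, were found for 58 members (46.0%) against 42.2% of protein-coding genes, and 35 of the 58 had no count at all. The median member lay at -2.86 ± 0.05 (SD, n = 4) on the scale of log2(TPM + 0.1), and the median protein-coding gene at -1.13 ± 0.12. Detection differed by family. Among noncanonical Gpr proteins, which are mostly intracellular, 7 of 8 were detected, among P2Y receptors 6 of 9, among LPA receptors 3 of 6, among adenosine receptors 2 of 4 and among hydroxycarboxylic acid receptors 1 of 2. Of ligand-assigned Gpr receptors 6 of 15 were detected, of S1P receptors 2 of 5, of adhesion receptors 5 of 27 and of orphan Gpr receptors 6 of 50.

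**Figure D1:**
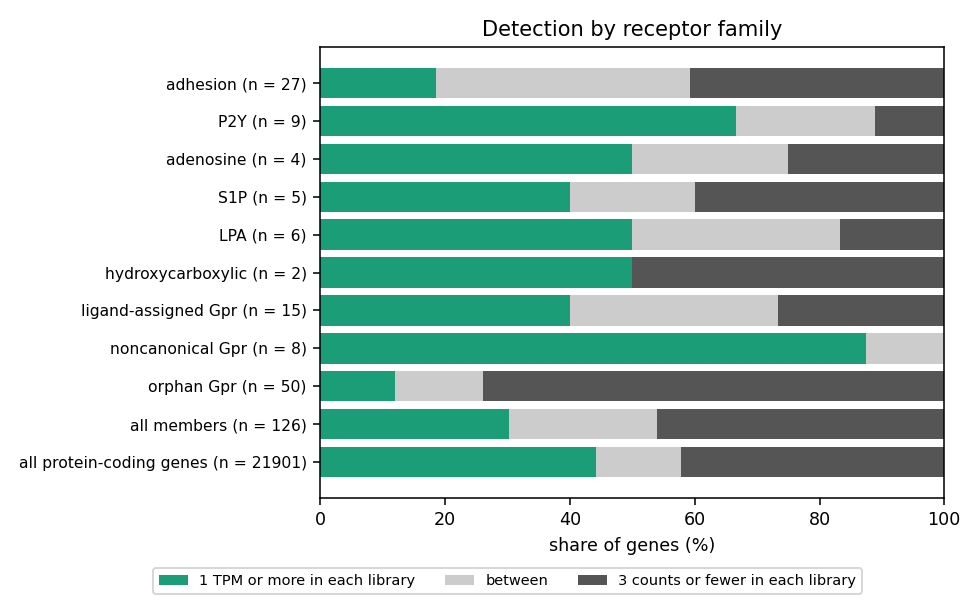
Share of genes in each receptor family, in percent, that had at least 1 TPM in each of 4 libraries (green), 3 counts or fewer in each library (dark grey) or neither (light grey), with all members and all protein-coding genes at the bottom. The green part covers 7 of 8 noncanonical Gpr genes but 6 of 50 orphan Gpr genes, of which 37 are dark.

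Adhesion receptors held most of the receptor message through Adgre1. Adgre1, the macrophage surface marker F4/80 (ENSMUSG00000004730.15, chromosome 17, 57358691 to 57483527 in mm10), had 1788, 1884, 2182 and 2406 TPM in replicates 1 to 4. Its rank among protein-coding genes was 53, 49, 40 and 35, and it made up 62.7% to 70.3% of the summed TPM of all members in a library. Its lowest library lay above the highest library of every other member, the next being Gpr65 with at most 280.4 TPM. Adgre5, which encodes the leukocyte adhesion receptor CD97, had 18.4, 44.6, 41.3 and 47.0 TPM, lowest in replicate 1. The Adgre1 level was 57.7 times that of Adgre5 as a geometric mean over libraries, from 42.2 to 97.0 times. Adgrl2, a latrophilin, had 5.82 ± 0.484 TPM (SD, n = 4), Adgrg6, known for its role in Schwann cell myelination, 4.49 ± 1.14 and Adgre4, a myeloid relative of Adgre1, 1.64 ± 0.478. Adgre5 overlaps Ddx39 on the other strand, which had 24.9 ± 2.81 TPM, and Adgrg6 overlaps the pseudogene Gm10335 on the other strand, with 17.5 ± 2.88 TPM. These overlaps are of whole gene spans and were not checked for shared exons. Whether counting used strand is not given in the sources used here, so reads from any shared exon stretch may not be told apart. Of the 22 other adhesion members, 11 had at most 3 counts in each library and 11 had 0 to 27 counts.

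Ligands known for adhesion receptors were mostly low. Of 16 listed genes 3 were detected and 6 had no count. The highest were Tgm2, a transglutaminase, at 149 ± 52.9 TPM, Cd55, the complement regulator that binds CD97, at 10.1 ± 4.96 and Flrt2, a latrophilin ligand, at 3.90 ± 3.10.

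P2Y receptors were led by those for uridine nucleotides. P2ry6, the UDP receptor (ENSMUSG00000048779.5, chromosome 7, 100937630 to 100974649), had 123, 88.6, 129 and 108 TPM. P2ry14, the UDP-glucose receptor, had 84.2, 102, 98.6 and 92.0 TPM. The libraries of these genes overlapped, and P2ry6 was the higher in replicates 1, 3 and 4 but not in 2. P2ry13, an ADP receptor that couples to inhibitory G proteins, had 38.2, 52.2, 34.9 and 52.8 TPM. P2ry12, the ADP receptor that antiplatelet drugs block and that marks microglia, had 12.1 ± 2.90 TPM, P2ry2, for ATP and UTP, 8.62 ± 2.65 and P2ry10b 8.50 ± 3.62. P2ry10b lies beside its relative P2ry10 on the X chromosome, which had 0.215 TPM on average, and reads of such related genes may be shared. Below detection were P2ry1, the main ADP receptor of platelets beside P2ry12, with 7 to 15 counts, P2ry10 with 4 to 20 and P2ry4 with none.

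The genes for P2ry14, P2ry13 and P2ry12 are neighbours and differed in level. Gpr171, P2ry14, P2ry13 and P2ry12 lie in this order within 166 kb of chromosome 3 (59096448 to 59262871), all on the minus strand and inside Med12l, a gene of the plus strand with 0.725 ± 0.244 TPM. Their mean levels were 1.24, 94.1, 44.5 and 12.1 TPM. P2ry14 was 1.74 to 2.83 times P2ry13, and P2ry13 was 2.31 to 6.21 times P2ry12, so the order of these 3 was the same in each library. Gpr171 was at 1.03, 1.18, 2.03 and 0.730 TPM, below these 3 in each library. Other neighbouring members also differed in level: P2ry6 was 8.83 to 23.3 times P2ry2, which lies 21.9 kb away, and Gpr18 was 8.10 to 18.6 times Gpr183 at 36.8 kb.

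**Figure D2:**
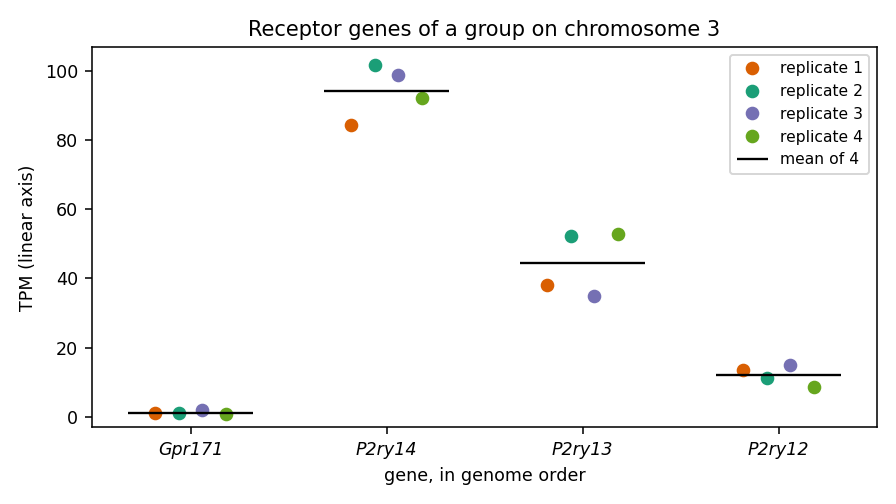
Level in TPM (linear axis) of 4 receptor genes of a group on chromosome 3 in genome order, with a point for each of 4 libraries and a bar for their mean. P2ry14 lies above P2ry13 and P2ry13 above P2ry12 in each library, and Gpr171 is lowest.

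The start regions of the 2 most abundant genes of this chromosome 3 group are shown because genes so near each other differed in level. Sequences are RefSeq windows of GRCm38.p6, from 250 bases before to 50 after the start, and those shown have a start within 50 bases of that of the gene's main transcript in these libraries. Capitals mark matches on either strand to GAGGAA, the core of the purine box that the macrophage factor PU.1 is known to bind, and to TGANTCA, the site known for AP-1; the motifs were picked after the receptor levels had been seen. These windows lie on the minus strand at chr3:59153443-59153742 for P2ry14 and chr3:59210833-59211132 for P2ry13.
P2ry14: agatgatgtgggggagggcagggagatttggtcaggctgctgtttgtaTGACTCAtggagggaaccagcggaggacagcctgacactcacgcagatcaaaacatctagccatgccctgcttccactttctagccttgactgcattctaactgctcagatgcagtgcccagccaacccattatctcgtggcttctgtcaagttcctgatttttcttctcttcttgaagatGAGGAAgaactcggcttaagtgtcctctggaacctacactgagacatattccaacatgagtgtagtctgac
P2ry13: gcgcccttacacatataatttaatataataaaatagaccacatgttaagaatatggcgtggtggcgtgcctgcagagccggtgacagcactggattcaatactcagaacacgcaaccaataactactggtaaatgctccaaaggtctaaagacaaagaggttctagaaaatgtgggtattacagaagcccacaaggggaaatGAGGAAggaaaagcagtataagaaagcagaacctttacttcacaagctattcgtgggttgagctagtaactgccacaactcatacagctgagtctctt
Each of these windows holds 1 match to GAGGAA, and that of P2ry14 also holds 1 to TGANTCA. Among all 32851 RefSeq windows GAGGAA is found in 28.3% and TGANTCA in 7.81%. Of 45 windows that belong to detected members 37.8% hold the first and 11.1% the second, and 30 of the 38 detected members have an entry. Some genes have several windows, so these are shares of windows and not of genes. P2ry14 has further windows with starts 22164 to 22730 bases from that of its main transcript, each also with a match to GAGGAA. A match is a description of the letters and was not tested as a site.

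Ion channels and enzymes that share ligands with these receptors were also present. Of 7 P2X channels, which ATP opens, P2rx4 had 591 ± 58.1 TPM and P2rx7, known for driving inflammasome activation, 35.5 ± 8.84, and the others were not detected. The next highest, P2rx1, had 0.655 ± 0.337 TPM. Among 13 genes of nucleotide and adenosine handling 6 were detected, led by Entpd1 (CD39, which removes phosphates from ATP and ADP) at 88.1 ± 12.9 TPM, the adenosine transporter Slc29a1 at 29.5 ± 5.22 and adenosine kinase, Adk, at 23.0 ± 6.37. Nt5e, which encodes CD73 and makes adenosine from AMP, had 0.0150 ± 0.0191 TPM.

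Adenosine receptors were represented by the forms that raise cyclic AMP. Adora2a (ENSMUSG00000020178.6, chromosome 10, 75316877 to 75334784) had 27.2, 36.9, 13.5 and 25.9 TPM, lowest in replicate 3. Adora2b, the low-affinity receptor, had 3.97 ± 2.06 TPM, with 7.03 in replicate 1 against 2.64 to 3.30 in the others. Adora2a was the higher in each library, by 3.87 to 12.8 times. Adora3 reached 1 TPM in replicates 2, 3 and 4 but not in replicate 1 (30 to 86 counts), and Adora1 had no count in any library.

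Among S1P receptors S1pr2 was highest and among LPA receptors Lpar5. S1pr2 (ENSMUSG00000043895.6, chromosome 9, 20962361 to 20976781), had 30.5, 32.5, 22.9 and 27.1 TPM. S1pr1, which guides lymphocyte egress, had 6.07 ± 1.16 TPM, and S1pr2 lay above it in each library by 3.63 to 6.47 times. S1pr4 had 4 to 17 counts, and S1pr3 and S1pr5 at most 3. Lpar5 had 6.42, 7.81, 9.92 and 8.43 TPM. Lpar6 had 4.62 ± 2.15 TPM with its highest value, 7.84, in replicate 3, and it lies within Rb1, a gene of the other strand with 27.3 ± 4.87 TPM. Lpar1 had 3.62 ± 1.89 TPM, Lpar2 and Lpar4 had 0 to 35 counts and Lpar3 at most 3. Of 14 genes that make or remove lysolipids 8 were detected, led by the lysophosphatidylserine lipase Abhd12 at 338 ± 35.7 TPM, the S1P lyase Sgpl1 at 204 ± 41.0 and the sphingosine kinase Sphk2 at 52.1 ± 9.52, while autotaxin, Enpp2, which makes lysophosphatidic acid outside cells, had 0.130 ± 0.0627 TPM.

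Among ligand-assigned Gpr receptors the proton sensor Gpr65 had the highest mean level. Gpr65, a receptor that responds to acid (ENSMUSG00000021886.7, chromosome 12, 98268635 to 98276644), had 172, 177, 280.4 and 115 TPM, highest in replicate 3 and lowest in replicate 4. It was the second most abundant member on average, at 186 ± 69.0 TPM, and its libraries overlapped those of P2ry6. Gpr84, for medium-chain fatty acids, had 123, 38.8, 22.1 and 29.5 TPM, with a mean of 53.4 that was 30.1 without replicate 1. In replicate 3 it lay just below Gpr35, at 22.8 TPM. Gpr31b, a hydroxyeicosanoid receptor, had 42.6, 26.6, 17.3 and 17.2 TPM. Gpr132, a receptor for oxidised fatty acids, had 2.04, 9.96, 4.65 and 10.8 TPM. Gpr35 had 14.6 ± 5.59 TPM and Gpr18 7.85 ± 1.77, the latter overlapping Ubac2 of the other strand at 25.4 ± 2.56 TPM. Hcar2, the niacin and β-hydroxybutyrate receptor, had 12.2, 9.16, 2.35 and 5.76 TPM, while Hcar1, the lactate receptor 11.2 kb away, had no count. Below detection were Gpr55 at 0.860 to 3.47 TPM, the lysophosphatidylserine receptor Gpr34 at 0.280 to 1.13, the oxysterol receptor Gpr183 at 0.470 to 0.830 and the acid sensor Gpr4 with 2 to 4 counts. Gpr17, Gpr119 and Gpr174 had at most 3. Of 4 genes that make or remove the oxysterol ligand of Gpr183, Hsd3b7 had 29.8 ± 2.70 TPM, Ch25h 14.2 ± 13.7 and Cyp27a1 10.1 ± 4.62. The remaining gene, Cyp7b1, was not detected, at 0.0075 ± 0.015 TPM and at most 1 count in a library.

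The start region of Gpr65 is shown as that of the most abundant Gpr member, on the plus strand at chr12:98268385-98268684, with capitals as above.
Gpr65: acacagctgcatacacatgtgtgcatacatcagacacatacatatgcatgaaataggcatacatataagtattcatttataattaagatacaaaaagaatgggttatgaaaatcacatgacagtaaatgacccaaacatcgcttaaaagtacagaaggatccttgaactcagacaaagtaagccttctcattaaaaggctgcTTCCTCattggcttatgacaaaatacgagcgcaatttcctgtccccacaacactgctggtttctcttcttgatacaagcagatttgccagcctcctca
It holds 1 match to GAGGAA, read on the opposite strand as TTCCTC, and none to TGANTCA.

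Noncanonical Gpr proteins had a median of 3.64 ± 0.18 on the log2(TPM + 0.1) scale (SD, n = 4) and P2Y receptors 3.26 ± 0.41, with the P2Y median the higher in replicate 1 and the lower in replicates 2, 3 and 4. Gpr108, a Golgi and endosome protein, had 43.4, 59.2, 44.4 and 64.2 TPM, and its relative Gpr107 33.0, 34.5, 37.4 and 39.3. Gpr137b, a lysosomal membrane protein, had 23.9, 56.1, 30.8 and 44.7 TPM, lowest in replicate 1. Its related Gpr137b-ps, which matched the symbols but has no protein-coding transcript, had 81.0, 146, 98.7 and 117 TPM, above Gpr137b in each library, so the division of reads between them is uncertain. Gpr137 had 14.3 ± 2.69 TPM and overlaps Bad of the other strand, at 42.1 ± 1.27. Gpr89, which helps set the pH of the Golgi, had 10.9 ± 1.40, Gpr180 6.17 ± 0.751 and Gpr155, a lysosomal cholesterol sensor, 4.35 ± 1.87. Gpr137c had 3 to 5 counts.

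Orphan Gpr receptors were mostly undetected, with a few exceptions led by Gpr162. Gpr162 (ENSMUSG00000038390.11, chromosome 6, 124858444 to 124863983) had 30.2, 119, 71.3 and 126 TPM. The other detected orphans were Gpr85 at 21.9 ± 2.89 TPM, Gpr141 at 19.9 ± 8.25, Gpr160 at 12.1 ± 2.83, Gpr157 at 10.7 ± 3.26 and Gpr146 at 8.12 ± 3.02, the last overlapping 3110082I17Rik of the other strand at 10.7 ± 1.91. Gpr19, Gpr171 and Gpr176 passed 1 TPM in some libraries only, with 18 to 140 counts. Gpr15, Gpr82 and Gpr179 had at most 10 counts in a library, and 37 orphans had at most 3 counts in each library, 23 of them none.

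The order of the detected members was only partly resolved by 4 libraries. Sorted by mean TPM, 35 of the 37 pairs next to each other had overlapping libraries. The exceptions were Adgre1 above Gpr65 and Gpr107 above S1pr2, the latter by 33.0 against 32.5 TPM. The coefficient of variation of a detected member between libraries ranged from 7.90% (Gpr107) to 88.1% (Gpr84), with a median of 29.8% against 16.5% for the 9692 detected protein-coding genes. The median level was 12.1 TPM for these members and 18.4 TPM for those genes.

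**Figure D3:**
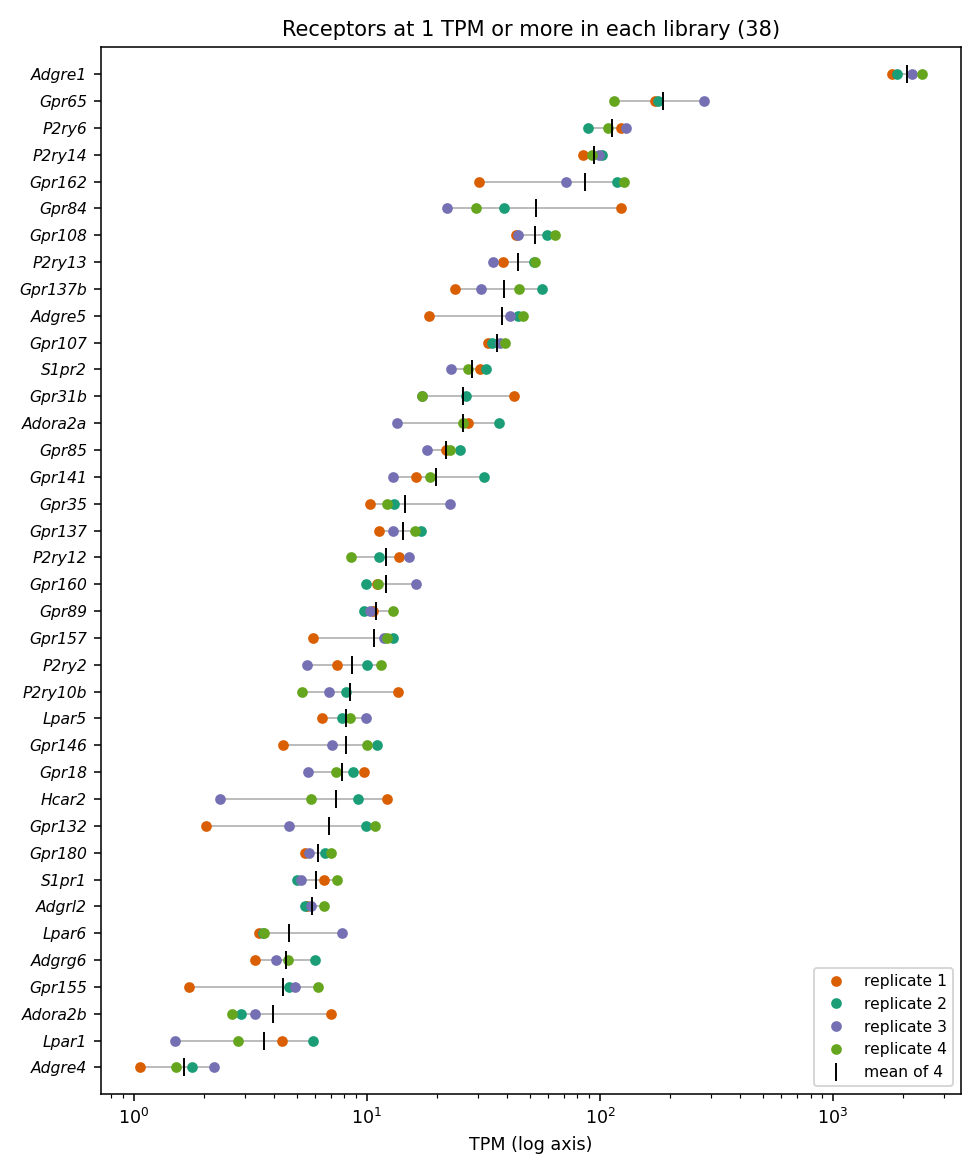
TPM (log axis) of the 38 detected receptors, sorted by mean, with a coloured point for each of 4 replicate libraries, a black tick for the mean and a grey line over the range. Adgre1 stands at 1788 to 2406 TPM, apart from all others, and the ranges of most neighbours overlap.

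Proteins that carry or limit receptor signals were expressed from a few genes of each family. Of 16 G alpha subunits 8 were detected, led by the inhibitory Gnai2 at 470 ± 13.6 TPM, the stimulatory Gnas at 417 ± 36.6 and Gna13 at 111 ± 22.7. Of 8 receptor kinases and arrestins 6 were detected, with Arrb2 at 355 ± 58.7, Grk2 at 156 ± 23.1 and Arrb1 at 40.0 ± 13.7. Of 21 RGS proteins, which end G protein signals, 7 were detected, and Rgs1 at 1499 ± 495 TPM exceeded Rgs10 at 119 ± 31.5 and Rgs19 at 69.6 ± 4.77. Of 16 effectors 8 were detected, led by the adenylyl cyclase Adcy7 at 49.8 ± 3.89, Arhgef1 at 38.3 ± 4.64 and Arhgef11 at 11.2 ± 0.423.

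Gpr84, Gpr162, Hcar2, Gpr132 and Gpr31b varied among the libraries beyond the trend for genes of like abundance. The test compared each gene's deviance over the 4 libraries with edgeR's dispersion trend, at a Benjamini-Hochberg adjusted p of up to 0.05 over all genes tested. It called 5 of 48 tested members (10.4%), beside 2.61% of 11679 genes. An unadjusted p under 0.05 was found for 18 of the 48 (37.5%), beside 7.79% of genes. Gpr84 had 136, 37.0, 21.4 and 29.6 CPM in replicates 1 to 4, where CPM are counts relative to the normalised library total (edgeR adjusted p 4.9e-12), and replicate 1 stood at 4.63 times the mean of the others. Gpr31b had 32.8, 17.7, 11.7 and 12.0 CPM (adjusted p 0.0286) and Hcar2 15.4, 9.94, 2.61 and 6.60 (adjusted p 0.00369), both also highest in replicate 1. In the opposite direction Gpr162 had 54.4, 188, 117 and 204 CPM (adjusted p 6.9e-04) and Gpr132 3.41, 14.3, 6.87 and 16.5 (adjusted p 0.00389), both lowest in replicate 1. So 3 of the 5 were highest and 2 lowest in that library, which was also highest for 49.5% and lowest for 29.8% of the 305 genes called. Protein-coding genes held 89.4% of TPM in replicate 1 and 92.4% to 93.0% in the others. Without replicate 1 none of the 5 passed, with edgeR adjusted p from 0.0510 (Hcar2) to 0.9999 (Gpr31b). The only member then called was Adora2a (adjusted p 0.0316), beside 1.12% of genes, and 26.9% of members against 7% of genes had an unadjusted p under 0.05. Without replicate 3, 3 of the 5 passed, with Hcar2 at 0.725 and Gpr31b at 0.0945; without replicate 4 Gpr31b was at 0.0608, and without a filter on low counts at 0.0866.

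Overlapping, related, ligand and marker genes were set beside these receptors. Gpr84 overlaps Gm49482, an antisense gene of the other strand, which had 25.4 and 6.46 TPM in replicates 1 and 2 and 0 in replicates 3 and 4. Gpr31a, a relative of Gpr31b without a protein-coding transcript, had 13.6, 11.6, 3.99 and 3.59 TPM, so that reads may have been shared. Ch25h and Flrt2 of the listed ligand genes were variable too and highest in replicate 1, at 27.2 against 1.07 to 12.8 CPM and 36.9 against 6.71 to 13.5. Among markers the eosinophil gene Ccr3 was variable with 39.2 CPM in replicate 1 against 1.49 to 4.31. S100a8 and S100a9 were variable too, and higher in replicates 1 and 3 than in replicates 2 and 4. The part of other cells in these receptor values was not tested, and in bulk samples fewer cells of a type and less RNA per cell cannot be told apart.

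**Figure D4:**
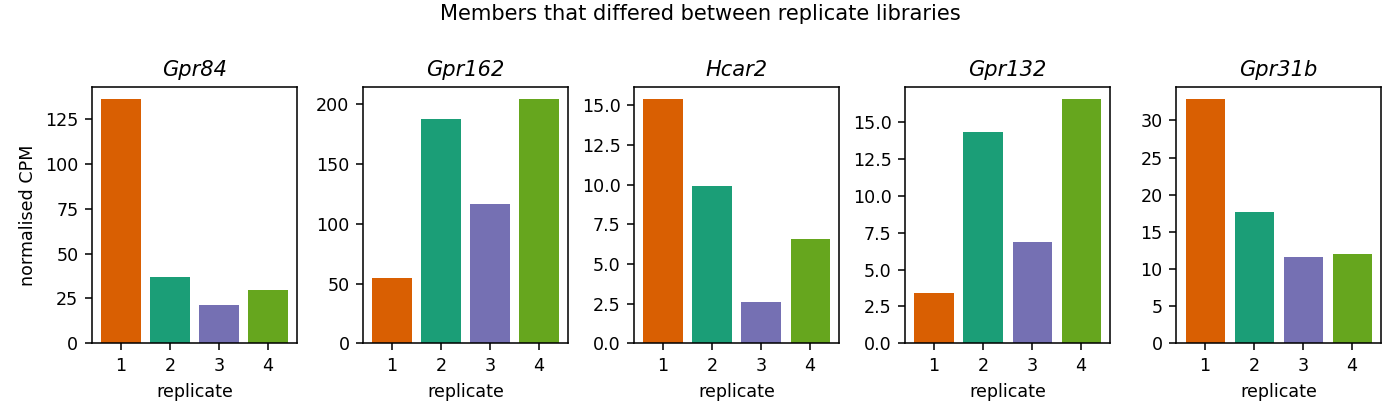
Normalised CPM (linear axes from 0, a separate scale per gene) of the 5 receptors that differed between replicate libraries in the edgeR deviance test, with 1 bar for each library. Gpr84, Hcar2 and Gpr31b are highest and Gpr162 and Gpr132 lowest in replicate 1.

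The start regions of Gpr31b and Gpr132 are shown since these genes moved in opposite directions in replicate 1. Both lie on the minus strand, at chr17:13052231-13052530 and chr12:112860867-112861166, with capitals as above.
Gpr31b: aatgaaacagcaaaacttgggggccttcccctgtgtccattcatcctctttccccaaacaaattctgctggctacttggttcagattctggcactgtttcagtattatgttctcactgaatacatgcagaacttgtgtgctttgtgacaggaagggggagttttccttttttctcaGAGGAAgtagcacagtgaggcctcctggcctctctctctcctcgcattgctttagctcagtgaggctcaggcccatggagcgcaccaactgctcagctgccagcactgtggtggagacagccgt
Gpr132: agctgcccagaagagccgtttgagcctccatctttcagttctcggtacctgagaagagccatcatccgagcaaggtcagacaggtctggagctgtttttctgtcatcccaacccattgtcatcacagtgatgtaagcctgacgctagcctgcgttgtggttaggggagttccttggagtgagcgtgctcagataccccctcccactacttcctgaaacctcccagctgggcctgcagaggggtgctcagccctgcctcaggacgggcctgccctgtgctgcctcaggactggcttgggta
The Gpr31b window holds 1 match to GAGGAA and none to TGANTCA, and the Gpr132 window holds neither. Gpr84, also highest in replicate 1, has a window whose start lies 174 bases from that of its main transcript, so it is not printed. That window holds neither motif, and no link between motifs and levels was tested.

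Between libraries with 6 and with 4 read files no member passed edgeR's quasi-likelihood test. It called 0 of 53 tested members and 0% of 12667 genes, while an unadjusted p under 0.05 was found for 8 members (15.1%) and 7.08% of genes, and DESeq2 called 1 of the 53 members, Lpar1, beside 0.813% of 12667 genes. Lpar1 had 4.32 and 5.87 TPM in replicates 1 and 2 and 1.5 and 2.80 in replicates 3 and 4, a difference of -1.31 log2 units for 4 read files relative to 6 (edgeR adjusted p 0.596). Of the 8 members with an unadjusted p under 0.05, 7 were lower in the libraries with 4 read files, as were 62.5% of the 897 such genes. Among those 7, Gpr84, Gpr31b, Hcar2 and P2ry10b were highest in replicate 1, and Lpar1, Gpr55 and Adora2a in replicate 2. P2ry10b had 27.4, 14.6, 12.2 and 10.1 CPM in replicates 1 to 4, with replicate 2 also above replicates 3 and 4. The cause of these differences was not tested.

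Of the members compared between the deposited quantifications, 2 adhesion receptors differed in level. Per the deposited records, the first started from reads aligned to transcripts and the second from unaligned reads. Called at a difference of at least 1 log2 unit and an adjusted p of up to 0.05 in limma, 2 of 45 tested members differed, beside 10.9% of 12299 genes. Adgrg4, listed at 0 in each library in the first, had 1.71, 0.653, 4.32 and 2.11 TPM in the second (4.26 ± 0.664 log2 units higher, SE; limma adjusted p 2.4e-09), all from the protein-coding transcript Adgrg4-201. Adgrl3, listed at 0 to 0.0400 TPM, had 0.864, 1.10, 4.54 and 0.786 TPM (3.76 ± 0.715 log2 units higher; adjusted p 1.8e-06), and 98.4% to 100% of it was on Adgrl3-230, annotated as a retained intron of 614 bases. Both members passed the filter, a mean of at least 1 TPM in either quantification, through the second alone. Their adjusted p-values therefore rest on the same values that selected them. With the first at or near 0, the sizes depend on the pseudocount of 0.1 TPM. Without replicate 3 Adgrg4 alone was called, and on CPM Adgrl3 was not tested, since its mean of 0.556 CPM in the second was under the filter. The median difference of the members, -0.28 log2 units, was close to that of all genes, -0.29, and after centring on all genes 43 of 45 members lay within 0.5.

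**Figure D5:**
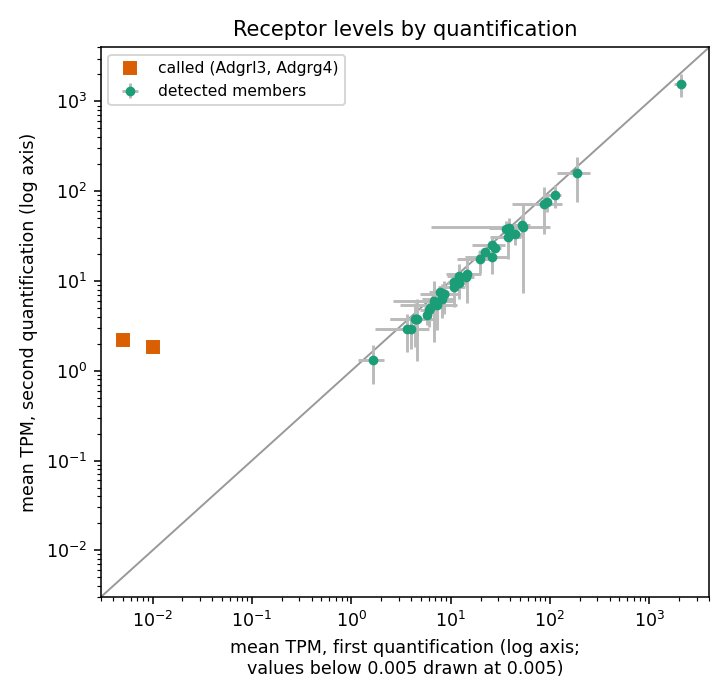
Mean TPM over 4 libraries in the second against the first quantification (log axes), for the 38 detected members (circles, bars 1 SD) and for Adgrl3 and Adgrg4 (squares); the line marks equal values. Of the 38 circles 36 lie below the line, and the squares lie far above it at about 2 TPM in the second.

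For most detected members the same transcript led in each library. Of the 38, 12 have a single annotated transcript, and 30 had the same transcript of highest TPM in each library. The other 8 were Adgre5, Adgrl2, Gpr35, Gpr85, Gpr108, Gpr137b, Gpr160 and P2ry10b. For Gpr108 the transcripts Gpr108-201 and Gpr108-204 held 52.2% ± 2.70 and 46.3% ± 3.08 of the gene's TPM (SD, n = 4). In the first quantification Gpr137b was the only detected member whose highest transcript was not protein coding in every library: Gpr137b-207, annotated for nonsense-mediated decay, held 38.9%, 27.4%, 28.5% and 32.9% and the protein-coding Gpr137b-201 held 37.3%, 25.3%, 34.7% and 27.1%. In the second quantification Gpr137b-207 held 16.0% ± 3.50, and Gpr137b-201 was highest in each library. Gpr107-210, a retained intron, held 19.5% ± 4.35 of Gpr107 in the first and 44.2% ± 1.94 in the second, where it was the highest in replicate 1 at 46.4% against 46.1% for the protein-coding Gpr107-201. Transcripts of a gene share reads, so these shares are estimates.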

How the data were processed

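PolyA RNA-seq of 4 libraries of 1 group was used. For each library the authors deposited gene and transcript tables, made on the assembly mm10 with GENCODE M21 per the deposited records. The programs are not given in the sources used here; column names per the file headers are those of RSEM (first quantification) and kallisto (second). The deposited expected and estimated counts are not normalised, and the deposited TPM values were scaled by the authors to the same total in each library. Counts ranged from 23167140 to 41453162 per library; 3 counts, the limit that a count of 0 allows, are 0.0724 to 0.129 CPM, covering counting error only.

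Counts were rounded and fitted over all genes in edgeR 4.0.16 under R 4.3.3 (TMM, low counts removed by filterByExpr, trended dispersion; deviance test at a common biological coefficient of variation of 22.4%, and quasi-likelihood test), with DESeq2 1.42.0 as an alternative. The quantifications were compared in limma 3.58.1 on log2(TPM + 0.1), for genes at a mean of at least 1 TPM in either. Fits were tested on simulated data with known changes. The simulated counts were drawn with the fitted dispersion trend, so these runs do not check whether that trend holds. The rule for members uses symbols and transcript types only, but it and the lists were set with earlier results of these data known. Values by library are given for the 12 members with the highest means, the highest of each family, every called member and detected members whose highest transcript is not protein coding throughout; of the listed partner genes the 3 highest per list and the variable ones are named.

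Alternatives were other thresholds, pseudocounts, normalisations, filters, tools and each replicate left out. Centring on the median of all genes and rescaling TPM over protein-coding genes were added after seeing the data. RefSeq promoter windows matched 94 of 126 members. A few members enter the counts but are not reported by name here.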

Additional observations from a re-analysis of the deposited data

Results flagged for a closer look

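In 50 sets of 4 values (detected members, family sums and variable ligand genes), 4 had 1 library far from the rest by Dixon's ratio at its 95% critical value; chance flags about 1 in 20 such sets. Gpr84 was at 123 TPM in replicate 1 against 22.1 to 38.8 in the others, and Adora2b at 7.03 against 2.64 to 3.30. Gpr157 was at 5.86 TPM in replicate 1, below 11.9 to 12.9. Lpar6 was at 7.84 TPM in replicate 3 against 3.43 to 3.63.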

How the results depend on the processing

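Members detected numbered 38, with 42 at 0.5 TPM, 35 at 2 TPM, 37 in the second quantification, 38 after rescaling over protein-coding genes and 38 to 40 with a replicate left out. Members with at most 3 counts numbered 58, with 35 at 0 counts, 44 in the second quantification and 59 to 61 with a replicate left out. The median level of -2.86 follows the pseudocount, at 0.0531 with 1 TPM and -4.40 with 0.01 TPM, and was -2.87 to -2.84 with a replicate left out. Variable members in edgeR numbered 5, with 5 by RLE, 4 without a filter, 6 by DESeq2's trend (Lpar1 added) and 1 to 5 with a replicate left out. The split by read files had 0 members in edgeR under each setting and with each replicate left out, and 1 in DESeq2. Quantification calls numbered 2, with 2 at a pseudocount of 1 TPM, 2 after centring, 2 on CPM (Adgrg4 and Adgrv1, with Adgrl3 below the filter), 5 without a filter on low values (Adgrv1, Gpr37 and Gpr45 added) and 1 to 2 with a replicate left out. A main transcript was shared by all libraries for 30 members, for 35 in the second quantification and for 30 to 33 with a replicate left out. Of the 38 levels 10 moved by more than 1 SD in the second quantification, 36 being lower there. Leaving out 1 replicate moved 1 level by over 1.5 times, that of Gpr84, from 53.4 to 30.1 TPM without replicate 1. No paired analysis between groups was possible because there is 1 group, while the quantifications were compared as differences within each library. Depth limits the members with few counts: 3 counts or fewer do not show that a receptor is absent.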
